A study of Mus musculus with 6 samples.

Results

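The 30 genes described here encode enzymes and regulators of fatty acid oxidation and of ketone bodies, with a few genes that fasting or dietary fat is known to control. They were chosen by gene name from the 54532 genes in the count tables, and each of the 30 names was found and passed the filter on low counts. RNA came from the intestine of newborn mice of the inbred strain C57BL/6 that had 5 days of NECA or of DMSO, with 3 libraries in each group. NECA, short for N-ethylcarboxamidoadenosine, mimics adenosine at its receptors, and DMSO is the solvent that served as control. According to the labels both groups shared strain, tissue and age, no group carried a genetic change, and the series title sets the work in necrotizing enterocolitis and suppressor cells of the newborn. Which stretch of bowel was taken, by what route NECA was given, and whether libraries of a group came from different animals are not stated in the labels, so p-values measure the spread between these libraries, which may be technical.

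Fatty acids enter mitochondria as carnitine esters and are shortened by repeated rounds of dehydrogenation, hydration, a second dehydrogenation and thiolysis, and the electrons pass through the electron transfer flavoprotein to the respiratory chain. Peroxisomes hold a parallel set of enzymes for substrates that mitochondria handle poorly. Acetyl-CoA from this pathway can be turned into ketone bodies, with the dehydrogenase Bdh1 as the last enzyme, and the suckling small intestine, which receives a diet rich in milk fat, is known as a site of this synthesis besides the liver. Many of the genes are targets of the nuclear receptor PPARα, which fatty acids activate.

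The libraries held 15531996 to 18065078 counts. Of them, NECA replicate 2 stood furthest apart from the rest in its markers of bowel position. Its summed level of 12 markers of proximal small intestine was 1356 CPM (counts scaled to the library total with TMM factors), against 23085 to 26537 in the other libraries, and all 12 markers were at their lowest there. Its summed level of 12 distal markers was 3890 CPM, against 313 to 953, and 10 of the 11 tested were at their highest there. The difference between the mean log2 levels of these 2 marker lists, used below as a position score, was -3.15 in NECA replicate 2, 1.20 in NECA replicate 3, 1.65 in DMSO replicate 3, and 3.31 to 4.82 in the rest. Proliferation markers summed to 1894 CPM in NECA replicate 2 and to 781 to 1013 CPM elsewhere, and goblet cell markers to 5174 CPM against 632 to 2492. The mitochondrial chromosome gave 4.49%, 8.39% and 3.61% of the counts with DMSO and 3.63%, 1.31% and 2.80% with NECA (two-sided exact permutation test, p = 0.2, where 3 against 3 cannot go below 0.1). Epcam, an epithelial surface protein, stood between 1359 and 1717 CPM, with its highest value in NECA replicate 2. It is 1 of 15 enterocyte markers, of which 7 were lowest and 8 highest in that library. Smooth muscle markers summed to 6117 CPM in DMSO replicate 2 and to 2443 to 3213 CPM elsewhere. DMSO replicate 2 also had the lowest goblet sum, 632 CPM. It was lowest for 25.1% and highest for 26.5% of all genes tested, against 27.9% and 30.1% for NECA replicate 2.

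None of the 30 genes differed between NECA and DMSO at an adjusted p of 0.05 in edgeR's quasi-likelihood test, and neither did any other of the 15847 genes tested (0%). DESeq2 on the same genes called 11, with 0 of the 30 among them. Log2 fold changes of NECA over DMSO were above 0 for 9 genes and below 0 for 21, with a median of -0.11, against -0.01 over all genes tested. At an unadjusted p of 0.05, 1 of the 30 passed (Vnn1), against 868 genes or 5.48% of those tested. Groups did not overlap for 1 of the 30 (Vnn1, with NECA higher), against 13.7% of all genes, made up of 6.49% with NECA higher and 7.16% with NECA lower.

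The genes shared a different feature, which was their low level in 1 library. NECA replicate 2 held the lowest value of the 6 libraries for 26 of the 30 genes (86.7%), against 27.9% of all genes tested. The median gene of the 30 stood there at 54.4% of the median of the other 5 libraries, and 12 of the 30 stood under 50%, against 8.02% of all genes. Acot12 and Acaa1b were under 10%, as were 0.72% of all genes. The 4 exceptions were Acads, Eci1 and Ppara, each lowest in DMSO replicate 2, and Vnn1, lowest in DMSO replicate 3. DMSO replicate 2 was lowest for 25.1% of all genes tested. The highest value lay in NECA replicate 1 for 12 of the 30 genes, against 11.6% of all genes, and in DMSO replicate 1 for 10, against 13.6%. Summed, the 30 genes took 0.934%, 0.726% and 0.765% of the counts with DMSO and 0.938%, 0.442% and 0.799% with NECA. In bulk tissue, fewer cells of a type and less RNA per cell cannot be told apart. The part that bowel position, proliferation or the mitochondrial share had in these values was not tested.

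**Figure D1:**
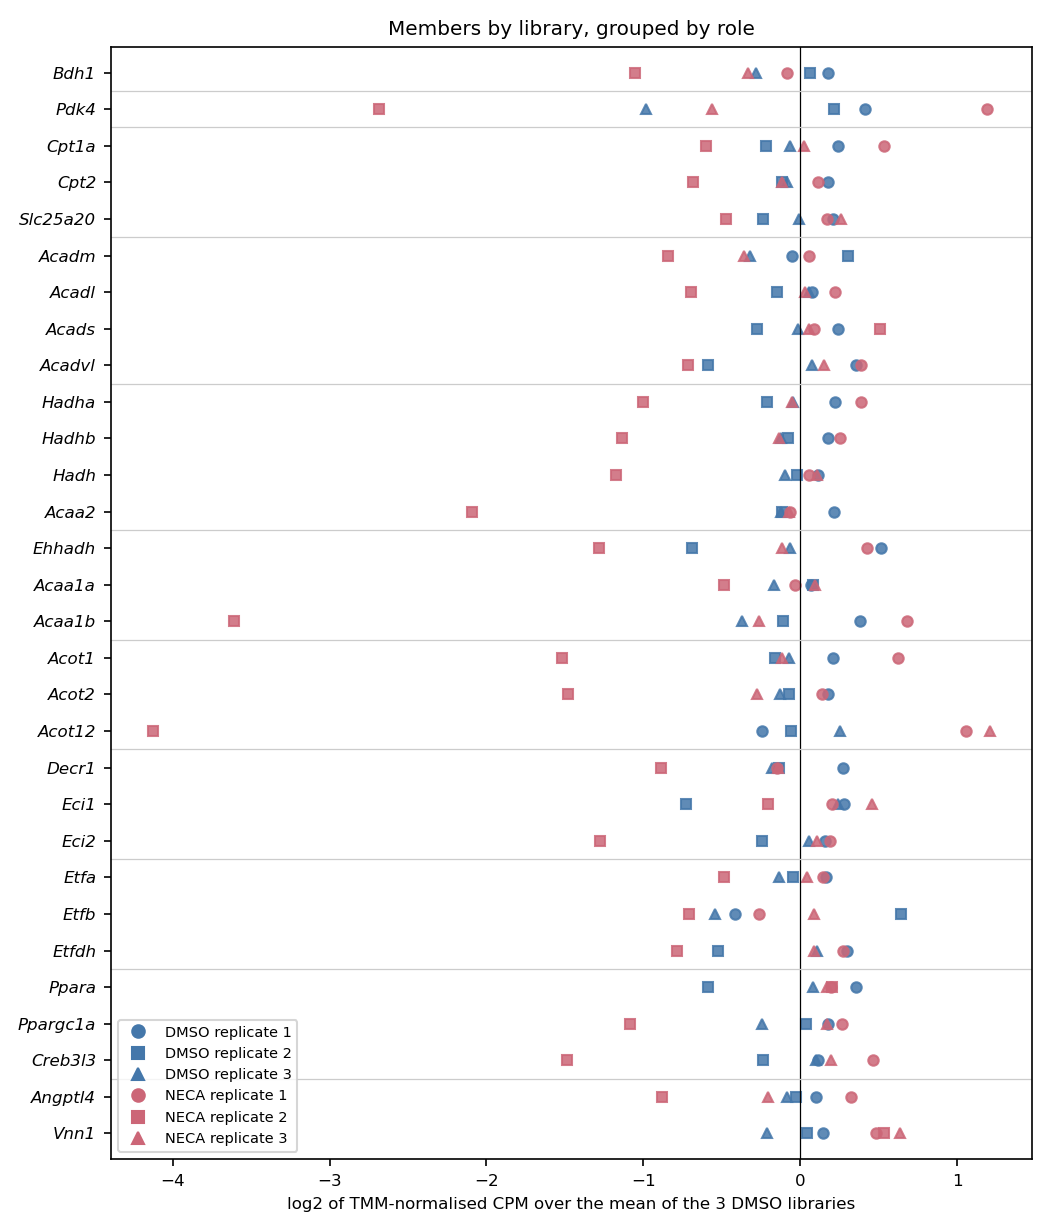
Level of each of the 30 genes (rows, in blocks by role) in each library, as log2 of TMM-normalised CPM over the mean of the 3 DMSO libraries (x axis); colour marks the group and shape the replicate number. The square of NECA replicate 2 is the leftmost point in 26 rows, and Vnn1 in the bottom row is the only one in which all 3 NECA points lie right of all 3 DMSO points.

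Without NECA replicate 2 the direction of the list turned. Fold changes were then above 0 for 24 genes and below 0 for 6, with a median log2 fold change of 0.17 against -0.02 over all genes tested. Still, 0 of the 30 passed the adjusted threshold in edgeR (0% of 16121 genes), and 2 of the 30 had an unadjusted p under 0.05 (Acot12 and Vnn1), against 5.49% of all genes. The 2 remaining NECA libraries lay above all 3 DMSO libraries for 3 of the 30 (Acot12, Creb3l3 and Vnn1), against 11.4% of all genes. The 3 are 10% of the list, close to that background. In the fit of all 6 libraries with the position score as a covariate, fold changes were above 0 for 28 of the 30 genes. The median log2 fold change was 0.22, against -0.02 over all genes tested, and none was called by edgeR. The score was computed from the same counts and was extreme in NECA replicate 2, at -3.15. This fit is therefore not independent of the one without that library, and it does not test the part of bowel position.

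Levels can be compared between genes only per length. The authors' FPKM are fragments scaled to transcript length and by a factor for each library. Their mean over the 6 libraries ran from 596 for Acaa2, the mitochondrial thiolase, to 2.23 for the coactivator gene Ppargc1a. After Acaa2 came Acadl (252), Creb3l3 (243), Hadh (196), Bdh1 (135), Etfa (124) and Cpt1a (118). The lowest after Ppargc1a were Ppara (3.42), Vnn1 (5.73) and Acot12 (7.53). Enzymes of the mitochondrial spiral thus stood well above the regulators Ppara and Ppargc1a per length, whereas the regulator Creb3l3 stood among the enzymes.

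**Figure D2:**
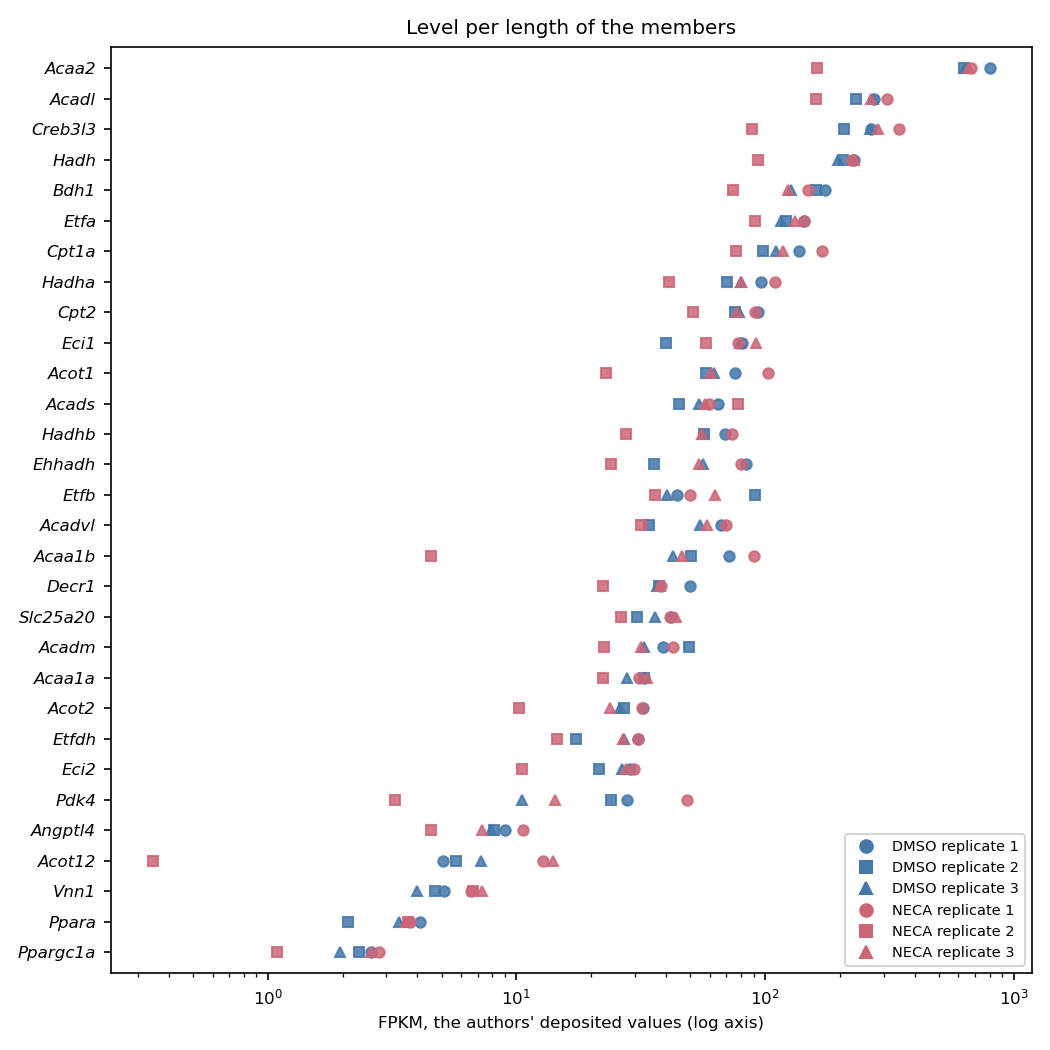
Level per length of the 30 genes in each library, as the authors' FPKM on a log axis, ordered by the mean over the 6 libraries. Acaa2 has the highest mean (596 FPKM) and Ppargc1a the lowest (2.23), and the left-hand outlying squares of Acaa1b, Pdk4 and Acot12 are NECA replicate 2.

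Bdh1, the mitochondrial enzyme that interconverts acetoacetate and 3-hydroxybutyrate, was at 687, 635 and 501 CPM with DMSO and at 573, 292 and 482 CPM with NECA. NECA replicate 2 was lowest, NECA replicate 3 just below the lowest DMSO library and NECA replicate 1 within the DMSO range. The means were 607 ± 96.2 CPM with DMSO and 449 ± 143 CPM with NECA (SD, n = 3 each), a log2 fold change of -0.44 (SE 0.28; edgeR adjusted p = 0.738). Without NECA replicate 2 it was -0.20.

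Other ketone genes were looked at from a list of 10, of which 9 passed the filter. Of these, 3 were higher and 6 lower in NECA, with and without NECA replicate 2, and none was called. With all 6 libraries, groups did not overlap for 2 of the 9 (Slc16a1 and Slc16a7, both with NECA lower), against 13.7% of all genes. Acat1, the mitochondrial acetoacetyl-CoA thiolase, showed the same library pattern as Bdh1, with 782, 663 and 629 CPM with DMSO and 634, 125 and 532 CPM with NECA. NECA replicate 2 stood at 19.7% of the median of the other libraries, and the log2 fold change was -0.69 (SE 0.52; edgeR adjusted p = 0.739), or -0.24 (SE 0.17) without that library. Oxct1, which activates ketone bodies for use as fuel, had a different pattern: 45.1, 64.5 and 53.1 CPM with DMSO and 33.3, 165 and 50.1 CPM with NECA. NECA replicate 2, the lowest library for Acat1 and Bdh1, thus held the highest Oxct1 value, at 329% of the median of the others. Acat1 and Oxct1 were picked after their values were seen.

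Pdk4, a kinase that blocks pyruvate dehydrogenase and so spares glucose when fat is burnt, varied most among the 5 libraries other than NECA replicate 2, by 4.51 times between the highest and lowest. It was at 98.7, 86.0 and 37.4 CPM with DMSO and at 169, 11.5 and 50.2 CPM with NECA, so that the NECA libraries held both the highest and the lowest value. The log2 fold change was 0.05 (SE 0.81; edgeR adjusted p = 0.989), and 0.57 (SE 0.53) without NECA replicate 2. The related kinases Pdk1, Pdk2 and Pdk3 were in the list of other PPAR targets, where no gene was called.

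Cpt1a, the outer-membrane carnitine palmitoyltransferase that sets the rate of entry into mitochondria, was at 594, 431 and 481 CPM with DMSO and at 727, 331 and 511 CPM with NECA. Here too NECA held both extremes, and the log2 fold change was 0.06 (SE 0.30). Cpt2, which rebuilds the acyl-CoA inside, and Slc25a20, the carnitine-acylcarnitine carrier, were likewise lowest in NECA replicate 2, at 66.0% and 64.2% of the median of the others. Their fold changes were -0.19 and 0.02 on the log2 scale. All 3 entry genes were thus lowest in NECA replicate 2, and each varied by at most 1.68 times over the other 5 libraries.

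The 4 acyl-CoA dehydrogenases catalyse the first step of each round, sorted by chain length. Acadl, for long chains, was at 556, 475 and 548 CPM with DMSO and at 614, 325 and 537 CPM with NECA (log2 fold change -0.10, SE 0.26). Acads, for short chains, was at 148, 104 and 125 CPM with DMSO and at 134, 179 and 131 CPM with NECA. Acads was the one gene of the 30 that was highest in NECA replicate 2, at 137% of the median of the others, and is shown for that reason. Acadm, for medium chains, and Acadvl, for very long chains, were at 58.0% and 54.9% there. Acadvl shares 42.9% of its exonic bases with other annotated genes, of which Dvl2, on the opposite strand, has the largest overlap. The strand setting of the counting is not given, so the Acadvl counts may include reads of Dvl2.

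Later steps of the spiral are carried by the trifunctional protein, whose subunits are Hadha and Hadhb, by the dehydrogenase Hadh and by the thiolase Acaa2. Hadha and Hadhb are transcribed away from each other from one short interval, which is shown because it lies directly before both genes. On GRCm38.p6 the outermost annotated starts (GENCODE M21) of Hadha, on the minus strand, and Hadhb, on the plus strand, leave 85 bases between them, at chr5:30155163-30155247, printed here from RefSeq on the plus strand, without capitals because none of the motifs listed further on was found in it.

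Hadha-Hadhb interval: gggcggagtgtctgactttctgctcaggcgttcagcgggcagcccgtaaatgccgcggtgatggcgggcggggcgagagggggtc

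Hadha was at 847, 627 and 703 CPM with DMSO and at 948, 362 and 700 CPM with NECA. Hadhb was at 459, 384 and 373 CPM with DMSO and at 483, 185 and 369 CPM with NECA. Both subunit genes had their highest value in NECA replicate 1 and their lowest in NECA replicate 2, which stood at 51.5% and 48.1% of the median of the others. Their log2 fold changes were -0.12 (SE 0.35) and -0.23 (SE 0.33).

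Acaa2, which performs the final thiolysis in mitochondria, was at 1230, 977 and 974 CPM with DMSO and at 1015, 249 and 1009 CPM with NECA. NECA replicate 2 stood at 24.6% of the median of the others, while the other 5 libraries lay within 1.26 times of one another. The means were 1060 ± 147 CPM with DMSO and 758 ± 441 CPM with NECA (SD, n = 3 each), with a log2 fold change of -0.49 (SE 0.48; edgeR adjusted p = 0.774), and of -0.06 (SE 0.17) without that library. Hadh stood at 42.7% there and was the most even of the 30 elsewhere, within 1.16 times over the other 5 libraries.

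The 3 peroxisomal enzymes were Ehhadh, a bifunctional enzyme, and the thiolases Acaa1a and Acaa1b. Ehhadh was at 252, 109 and 169 CPM with DMSO and at 237, 72.6 and 163 CPM with NECA (log2 fold change -0.17, SE 0.45). The thiolase genes are near copies, with 96.5% identity over 1272 coding bases and an identical run of up to 327 bases, so reads may have been split between them. Their values nevertheless differed by library. Acaa1a was at 146, 147 and 124 CPM with DMSO and at 136, 99.2 and 148 CPM with NECA. Acaa1b was at 142, 101 and 84.5 CPM with DMSO and at 175, 8.97 and 91.0 CPM with NECA. In NECA replicate 2 the first stood at 68.0% and the second at 8.87% of the median of the others, a contrast picked after the values were seen.

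Because 2 near copies differed so far in one library, the sequences upstream of their RefSeq start sites on GRCm38.p6 are shown, without bases that lie in annotated exons. That of Acaa1a is 134 bases at chr9:119341160-119341293 on the plus strand, and that of Acaa1b is 250 bases at chr9:119157094-119157343 on the minus strand. Both are written 5′ to 3′ up to the base before the start site, with matches to CCAAT or its complement in capitals.

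Acaa1a: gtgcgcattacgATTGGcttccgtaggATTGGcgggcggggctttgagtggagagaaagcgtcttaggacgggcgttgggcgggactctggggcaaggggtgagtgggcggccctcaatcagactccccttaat
Acaa1b: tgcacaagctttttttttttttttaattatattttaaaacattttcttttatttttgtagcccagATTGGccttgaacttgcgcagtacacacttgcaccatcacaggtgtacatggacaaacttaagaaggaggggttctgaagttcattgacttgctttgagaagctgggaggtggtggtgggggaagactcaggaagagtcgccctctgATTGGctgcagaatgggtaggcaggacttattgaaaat

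Each printed window holds 2 such matches, in 134 bases for Acaa1a and in 250 for Acaa1b. Acaa1a has 3 matches and Acaa1b 2 when all 250 bases are searched for both. Over the full 250 bases before the start site, exonic bases included, 53.6% were G or C for Acaa1a and 41.6% for Acaa1b, the lowest share among the genes of the list with an entry (median 58.8%, and 52.4% over 32851 windows of all genes). A match is a description of letters and shows no binding.

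Acyl-CoA thioesterases release free fatty acid and CoA. Acot1, the cytosolic form for long chains, was at 299, 232 and 247 CPM with DMSO and at 399, 90.7 and 239 CPM with NECA. Acot2, its mitochondrial counterpart, was at 71.9, 60.6 and 58.0 CPM with DMSO and at 69.9, 22.8 and 52.5 CPM with NECA. The pair stood at 36.8% and 37.6% of the median of the others in NECA replicate 2, with log2 fold changes of -0.09 (SE 0.46) and -0.39 (SE 0.36). Their coding sequences are 95.6% identical over 1236 aligned bases, so their counts too may be mixed.

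Acot12 (ENSMUSG00000021620, chr13:91741512-91786148 on GRCm38), a cytosolic thioesterase for acetyl-CoA, showed the widest split among the NECA libraries. It was at 16.9, 19.3 and 23.9 CPM with DMSO and at 41.7, 1.15 and 46.4 CPM with NECA. NECA replicates 1 and 3 lay above all DMSO libraries, and NECA replicate 2, with 23 counts, lay below all of them. The means were 20.0 ± 3.58 CPM with DMSO and 29.8 ± 24.9 CPM with NECA (SD, n = 3 each), with a log2 fold change of 0.57 (SE 0.93; edgeR adjusted p = 0.859). Without NECA replicate 2 the log2 fold change was 1.14 (SE 0.18), with an unadjusted p of 0.00024 and an adjusted p of 0.737 in edgeR. DESeq2 on the same 5 libraries gave 1.15 (SE 0.22) with an adjusted p of 0.00021, as 1 of 30 genes called among 16121. That call rests on 2 NECA libraries, on leaving out a library after its values were seen, and on the choice of tool; over all settings tried, the adjusted p ran from 0.00021 to 1 and the log2 fold change from -0.15 to 1.24.

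The upstream sequence of Acot12 is shown because it was the single gene of the 30 called under any setting. It covers chr13:91741271-91741421 on the plus strand of GRCm38.p6, 151 bases from 250 to 100 bases before the RefSeq start site, again without exonic bases. Capitals mark a match to AGGTCA, the core letters bound by many nuclear receptors, which lies on the opposite strand and reads as its complement.

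Acot12: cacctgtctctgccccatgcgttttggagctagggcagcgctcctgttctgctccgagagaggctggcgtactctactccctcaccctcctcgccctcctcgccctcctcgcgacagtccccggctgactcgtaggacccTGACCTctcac

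Of the 30 genes, 26 had an entry in the RefSeq promoter table and were searched over the 250 bases before the start site, on both strands. Acaa2, Angptl4, Decr1 and Vnn1 had none. AGGTCA was found for 5 of 26 genes (Acadm, Acadvl, Acot12, Cpt1a and Creb3l3), and in 14.0% of all windows. A direct repeat of AGGNCA with 1 base between its copies, a form of the PPAR element whose units include AGGTCA, was found for 0 of 26 and in 0.338% of all windows, and the cyclic AMP element TGACGTCA for 0 of 26 and in 1.55%. TGACG, the core of the cyclic AMP element and contained in it, was found for 8 of 26 genes and in 17.8%. CCAAT was found for 13 of 26 genes and in 33.9% of all windows, and the NRF1 motif, the palindromic site of nuclear respiratory factor NRF1, for Etfdh and Ppara (2 of 26) and in 0.782%. These searches cover only those letters in those windows.

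**Figure D3:**
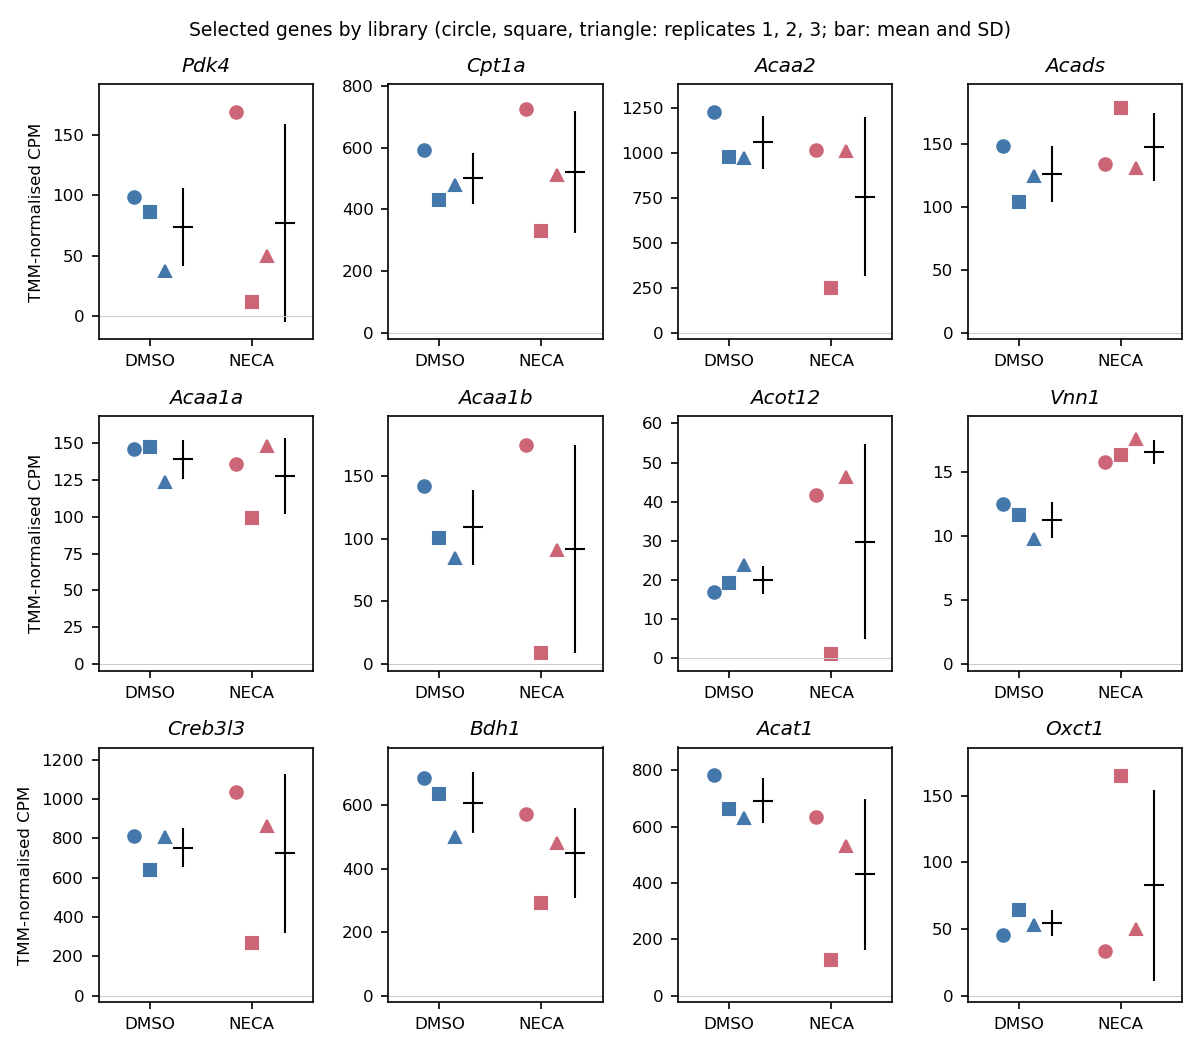
TMM-normalised CPM of 12 genes in each library (circle, square and triangle for replicates 1, 2 and 3), with the mean and SD (n = 3) of each group as a bar; y axes are linear, include 0 and differ between panels. Acaa1b falls to 8.97 CPM and Acot12 to 1.15 CPM in NECA replicate 2, Acads and Oxct1 are at their highest there, and Vnn1 is higher in all 3 NECA libraries.

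Auxiliary enzymes let unsaturated fatty acids through the spiral. Eci1, a mitochondrial enoyl-CoA isomerase, was at 89.2, 44.5 and 87.0 CPM with DMSO and at 84.6, 63.7 and 101 CPM with NECA. DMSO replicate 2 was lowest for Eci1, and the log2 fold change was 0.17 (SE 0.29). Eci2, an isomerase found in peroxisomes as well, stood at 38.4% of the median of the others in NECA replicate 2, and the reductase Decr1 at 59.6%. Their log2 fold changes were -0.19 and -0.35. Eci2 shares 89.5% of 944 aligned coding bases with Eci3, which leaves its counts less certain.

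Electron transfer runs from Etfa and Etfb, the subunits of the flavoprotein, to the oxidoreductase Etfdh. Etfa was at 265, 229 and 215 CPM with DMSO and at 261, 169 and 243 CPM with NECA (log2 fold change -0.08, SE 0.21). All 3 genes were lowest in NECA replicate 2, at 69.5%, 73.7% and 53.9% of the median of the others for Etfa, Etfb and Etfdh. Etfb departed from its partner in DMSO replicate 2, where it was highest, at 108 CPM against 51.8 and 47.3 CPM in the other DMSO libraries. That library was highest for 26.5% of all genes tested. Of the exonic bases of Etfb, 58.3% are shared with other annotated genes, the largest overlap being with a gene on the same strand. The Etfb counts thus depend on how shared reads were assigned.

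Among the regulators, Ppara was at 15.8, 8.23 and 13.1 CPM with DMSO and at 14.2, 14.2 and 13.9 CPM with NECA. The NECA values of this receptor gene were nearly equal, NECA replicate 2 included, and lay inside the DMSO range (log2 fold change 0.19, SE 0.25). Creb3l3, a membrane-bound transcription factor of liver and small intestine that acts with PPARα in fasting, was at 814, 638 and 806 CPM with DMSO and at 1036, 269 and 864 CPM with NECA. It stood at 33.1% of the median of the others in NECA replicate 2, while NECA replicates 1 and 3 lay above all DMSO libraries. Its log2 fold change was -0.06 (SE 0.45) with that library and 0.34 (SE 0.18; edgeR adjusted p = 0.848) without it. The coactivator gene Ppargc1a stood at 41.8% there, with a log2 fold change of -0.10 (SE 0.34). Ppara RNA stood at 102% of the median of the others in NECA replicate 2. The activity of the receptor was not measured.

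Angptl4, a secreted inhibitor of lipoprotein lipase, was at 29.7, 27.2 and 26.1 CPM with DMSO and at 34.6, 15 and 24.0 CPM with NECA (log2 fold change -0.18, SE 0.28). Vnn1 (ENSMUSG00000037440, chr10:23894688-23905343 on GRCm38) encodes a surface enzyme that splits pantetheine and is known as a PPARα target. Its level was at 12.5, 11.6 and 9.75 CPM with DMSO and at 15.8, 16.4 and 17.6 CPM with NECA. All 3 NECA libraries lay above all 3 DMSO libraries for Vnn1, NECA replicate 2 among them. The means were 11.3 ± 1.41 CPM with DMSO and 16.6 ± 0.918 CPM with NECA (SD, n = 3 each). The log2 fold change was 0.55 (SE 0.17), with an unadjusted p of 0.012 and an adjusted p of 0.738 in edgeR, so it was not called. It stayed between 0.46 and 0.64 on the log2 scale under every setting tried, with adjusted p-values from 0.625 to 1.

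**Figure D4:**
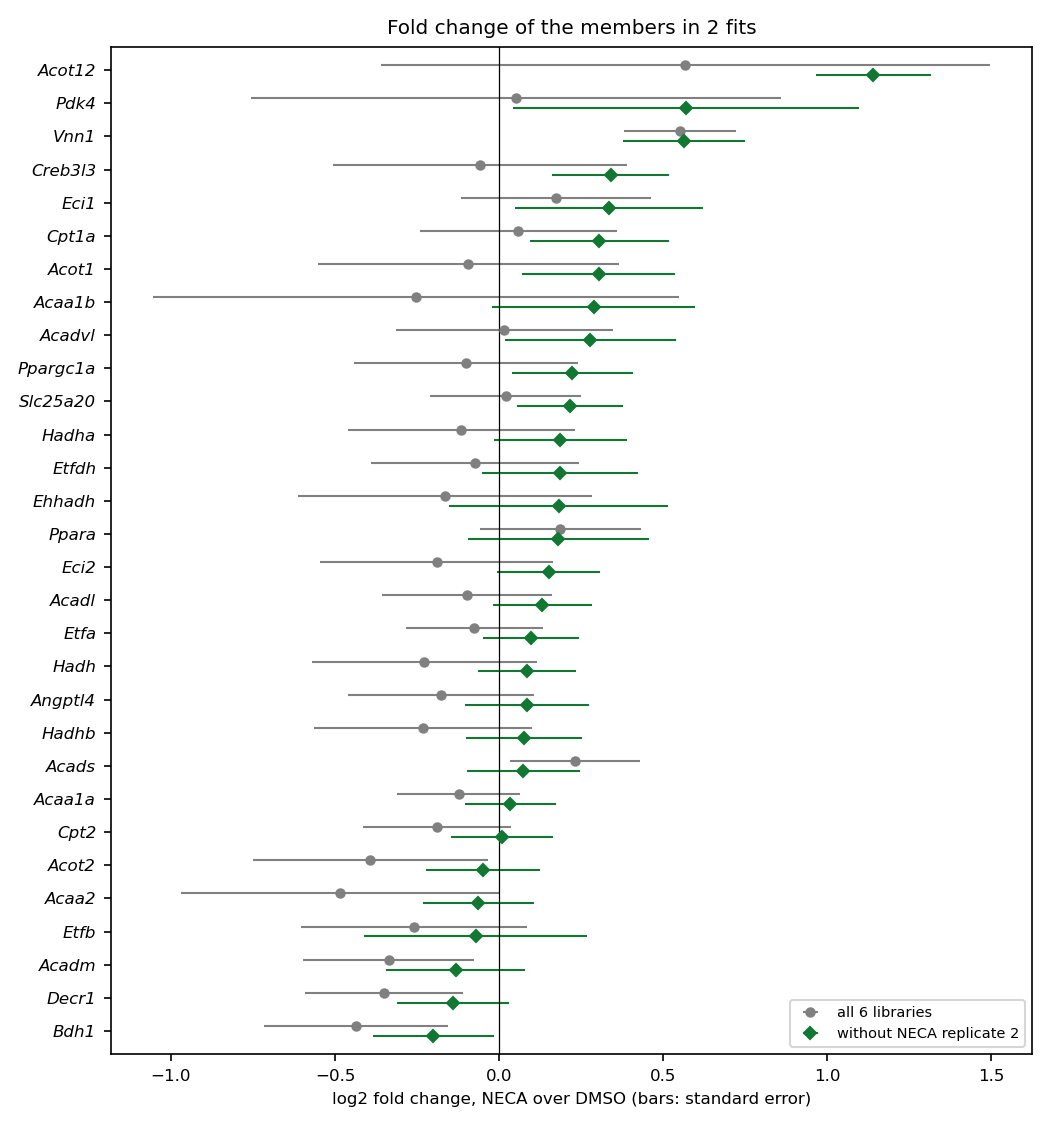
Log2 fold change of NECA over DMSO for each gene (points; bars are the standard error) in the edgeR fit of all 6 libraries (grey) and without NECA replicate 2 (green), ordered by the second. Green points lie above 0 for 24 genes and grey points for 9, and Vnn1 is nearly the same in both (0.55 and 0.56).

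Genes of the same pathways outside the 30 were taken from lists of 145 names, of which 144 were in the tables and 133 passed the filter. Of these, 52 were higher and 81 lower in NECA, 0 were called by edgeR or by DESeq2, and 1 had an unadjusted p under 0.05, against 5.48% of all genes. Groups did not overlap for 10 of the 133 genes (5 in each direction), against 13.7% of all genes. Their median log2 fold change was -0.08, or 0.04 without NECA replicate 2. NECA replicate 2 was lowest for 71 of the 133 (53.4%), against 27.9% of all genes, including 23 of 32 peroxisomal genes, 12 of 22 genes of the citric acid cycle and 5 of 17 other genes of mitochondrial acyl-CoA breakdown. The median gene stood at 63.8% of the other libraries in the peroxisomal list, at 83.1% in the citric acid cycle list and at 96.8% in the last. Among other PPAR targets, that library was lowest for 10 of 15, and the median gene stood at 45.8%. For the 30 genes described here the median was 54.4%. It was lowest for 6 of 9 other ketone genes and for 5 of 11 in the carnitine list (medians 68.9% and 71.8%). Of other regulators 8 of 25 were lowest there (median 93.8%), and of omega-oxidation genes 2 of 2.

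Acot5, a peroxisomal thioesterase, was the 1 gene of these with an unadjusted p under 0.05. It was at 0.502, 1.07 and 1.5 CPM with DMSO and at 1.68, 4.19 and 3.10 CPM with NECA, without overlap. Its log2 fold change was 1.55 (SE 0.50), with an unadjusted p of 0.015 and an adjusted p of 0.738 in edgeR. Acot5 is close in sequence to Acot1 (84.2% over 1252 coding bases), and per length its mean level was 1.31 FPKM, against 63.7 FPKM for Acot1.

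The fatty acid binding protein genes Fabp1 and Fabp2, which carry absorbed fatty acids in enterocytes, had the highest FPKM of these lists. Fabp1 was at 2384, 2420 and 2096 CPM with DMSO and at 2719, 23.1 and 2680 CPM with NECA, or 0.954% of the median of the others in NECA replicate 2. Fabp2 was at 3864, 4968 and 3318 CPM with DMSO and at 3832, 603 and 4411 CPM with NECA. Both were far lower in NECA replicate 2 and of similar level elsewhere, and their log2 fold changes were -0.35 (SE 1.16) and -0.46 (SE 0.64). Without that library both turned, to 0.23 (SE 0.16) and 0.03 (SE 0.21). Fabp1 is also one of the 12 proximal markers.

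Tissues other than bowel that burn fat were checked through their markers. Of 10 adipocyte markers, Adipoq, Lep and Retn had 0 counts in all 6 libraries, and the list summed to 413 to 485 CPM with DMSO and 183 to 469 CPM with NECA, mostly from Cidec, Lipe and Pnpla2, lipid droplet and lipase genes that are not particular to fat tissue. Among 6 brown fat markers Ucp1 had 0 to 2 counts. Of 10 hepatocyte markers, Alb, the albumin gene, had 0 to 215 counts and was highest in NECA replicate 1, and the list summed to 158 to 257 CPM with DMSO and 34.8 to 120 CPM with NECA. Serpina1a gave most of these counts in every library but NECA replicate 2, where Fga gave most. Of the 5 hepatocyte markers that passed the filter, 4 were higher in NECA and 1, Serpina1a, was lower. The lower NECA sums thus follow Serpina1a and not the other markers. Markers of striated muscle (13 genes) summed to 16.7 to 33.5 CPM with DMSO and 15.6 to 25.1 CPM with NECA. The summed level of 15 enterocyte markers was 49526 to 57216 CPM with DMSO and 57025, 19364 and 55596 CPM with NECA; 7 of the 15 were lowest and 8 highest in NECA replicate 2.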

How the data were processed

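RNA was measured in 3 DMSO and 3 NECA libraries, made per the labels' protocols with SMARTer cDNA synthesis, PCR amplification and paired-end sequencing. The authors deposited a whole-number count for each of 54532 genes and an FPKM value beside it, per the file headers. Per the submitters' processing notes, HISAT, StringTie and edgeR were used with mm10 or GRCm38; of their versions, the strand setting and the handling of reads with several matches, the sources used here say nothing. The deposited FPKM were the counts over 1 factor per gene and per library (largest relative deviation 1.33e-07). The library factor was not the plain total. Relative to DMSO replicate 1 it was 1.12 for NECA replicate 2, whose total was 1.01. Reads were amplified without molecular identifiers, so they do not stand for independent molecules. All pairs of libraries within a group differed beyond sampling noise.

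The counts were filtered (filterByExpr, minimum count 10, minimum total 15), scaled by TMM and tested by the quasi-likelihood method of edgeR 4.0.16 (R 4.3.3), two-sided, with Benjamini-Hochberg adjustment over the 15847 genes and a threshold of 0.05. Each standard error is the size of the fold change over the root of its F statistic. Scripts were tested on simulated data. Genes were given in full by library where p was under 0.05, groups did not overlap or the log2 fold change exceeded 0.58, and for the highest FPKM of each role; Acads, Acaa1a, Acaa1b, Acot2, Hadha, Hadhb, Ppara, Acat1 and Oxct1 were added after their values were seen. One result is not reported here. The members and lists were chosen with earlier results of these data known. Alternatives were DESeq2 1.42.0 (test and scaling), no filter, a stricter filter (5 CPM in 3 libraries), a replicate block, a position score covariate, robust dispersions, no mitochondrial genes and each library left out. Gene models are GENCODE M21 on GRCm38, and upstream sequences are from RefSeq.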

Additional observations from a re-analysis of the deposited data

How the results depend on the processing

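Another scaling (DESeq2 size factors), leaving out the mitochondrial chromosome and robust dispersions called 0 genes, as did edgeR's quasi-likelihood test as reported; 2 genes were called with no filter and 11 by DESeq2 with all 6 libraries, and 0 of the 30 genes among them. Under these 5 settings every one of the 30 kept its direction, and under the stricter filter 1 did not (-0.00048 for Acadvl on the log2 scale). Leaving out each library in turn, the number of the 30 genes above 0 ran from 5 (without DMSO replicate 2 or NECA replicate 1) to 24 (without NECA replicate 2), with 14 without DMSO replicate 1, and no gene was called. Of the 30, Vnn1, Acot12, Acads, Bdh1, Acadm, Acaa2, Acot2 and Decr1 kept their direction whichever library was left out. The log2 fold changes of the others ran over these ranges: Pdk4 -1.26 to 0.57, Cpt1a -0.25 to 0.31, Cpt2 -0.37 to 0.0086, Slc25a20 -0.11 to 0.22, Acadl -0.29 to 0.13, Acadvl -0.21 to 0.28, Hadha -0.45 to 0.19, Hadhb -0.55 to 0.075, Hadh -0.43 to 0.086, Ehhadh -0.58 to 0.18, Acaa1a -0.24 to 0.035, Acaa1b -1.13 to 0.29, Acot1 -0.65 to 0.30, Eci1 -0.085 to 0.33, Eci2 -0.42 to 0.15, Etfa -0.20 to 0.10, Etfb -0.47 to 0.22, Etfdh -0.28 to 0.18, Ppara -0.035 to 0.39, Ppargc1a -0.32 to 0.22, Creb3l3 -0.41 to 0.34, Angptl4 -0.50 to 0.085. The cause was not tested.

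The labels do not say that a replicate number marks a shared source. Deviations of same-numbered libraries correlated at 0.01, -0.19 and -0.02, and those of differently numbered libraries at -0.30 to 0.25. With so few libraries in each group, these values cannot decide whether the numbers pair the libraries. With the replicate block, 0 genes were called and 4 of the 30 were above 0, with a median of -0.22; fold changes that turned were -0.0045 for Acadvl, -0.15 for Acot12, -0.00019 for Cpt1a, -0.44 for Pdk4 and -0.0028 for Slc25a20.

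With the position score as a covariate, 28 of the 30 were above 0 (median 0.22) and 0 genes were called; fold changes that turned were 0.12 for Acaa1a, 0.66 for Acaa1b, 0.12 for Acaa2, 0.18 for Acadl, 0.082 for Acadm, 0.47 for Acot1, 0.12 for Acot2, 0.22 for Angptl4, 0.10 for Cpt2, 0.41 for Creb3l3, 0.22 for Eci2, 0.31 for Ehhadh, 0.20 for Etfa, 0.18 for Etfb, 0.21 for Etfdh, 0.21 for Hadh, 0.31 for Hadha, 0.23 for Hadhb and 0.43 for Ppargc1a. Over all genes tested the median under this covariate was -0.02. Settings added after seeing the data left NECA replicate 2 out as well. DESeq2 then called 30 genes, 1 of them among the 30 described (Acot12, 1.15), with 24 above 0; the fold changes that turned were 0.040 for Acaa1a, 0.30 for Acaa1b, 0.14 for Acadl, 0.31 for Acot1, 0.091 for Angptl4, 0.015 for Cpt2, 0.35 for Creb3l3, 0.16 for Eci2, 0.19 for Ehhadh, 0.10 for Etfa, 0.19 for Etfdh, 0.092 for Hadh, 0.19 for Hadha, 0.081 for Hadhb and 0.23 for Ppargc1a. The position score covariate then called 2 genes, with 27 above 0; those that turned were 0.10 for Acaa1a, 0.58 for Acaa1b, 0.13 for Acadl, 0.11 for Acadm, 0.43 for Acot1, 0.074 for Acot2, 0.20 for Angptl4, 0.080 for Cpt2, 0.33 for Creb3l3, 0.13 for Eci2, 0.27 for Ehhadh, 0.18 for Etfa, 0.21 for Etfb, 0.15 for Etfdh, 0.13 for Hadh, 0.27 for Hadha, 0.19 for Hadhb and 0.36 for Ppargc1a.

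Biological coefficients of variation, common to all genes, were 0.276 with all libraries and 0.213 with NECA replicate 2 left out. The lowest count among the 30 genes in any library was 23, for Acot12 in NECA replicate 2, and the next was 123, for Ppara in DMSO replicate 2.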

Other observations

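Among the other pathway genes, Cyp4a10, a PPARα target that starts omega-oxidation in the endoplasmic reticulum, varied widely. It was at 91.8, 59.8 and 14.8 CPM with DMSO and at 35.0, 0 and 6.6 CPM with NECA. Its lowest values lay in NECA replicates 2 and 3 and DMSO replicate 3. Slc27a2, a fatty acid transporter and acyl-CoA synthetase, was at 148, 154 and 96.2 CPM with DMSO and at 140, 17.8 and 84.9 CPM with NECA.

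Slc27a4, the fatty acid transport protein of the enterocyte, did not share the low level, with 548, 428 and 672 CPM with DMSO and 798, 569 and 857 CPM with NECA. Nr1d1, a clock repressor that also acts on lipid genes, was at 14.5, 18.1 and 9.57 CPM with DMSO and at 34.1, 12.1 and 24.7 CPM with NECA. Its log2 fold change was 0.75 (SE 0.39), and 1.07 (SE 0.27; edgeR adjusted p = 0.848) without NECA replicate 2. All 4 genes were picked after their values were seen, and none was called.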
